A study of Mus musculus with 5 samples.

Results

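RNA Polymerase II occupancy was examined at 5 chemokine receptor genes of T cells, *Ccr4*, *Ccr8*, *Ccr2*, *Ccr7* and *Cxcr4*, in Th2 cultures with and without PARP-14. The members were set by name. A line of the gene table was accepted for a member when its transcript accession and its coordinates on mm9 fitted the gene, which gave 5 lines of 11608. The 4 ChIP libraries were *Parp14*+/+, *Parp14*+/+ + PJ34, *Parp14*-/- and *Parp14*-/- + PJ34, all from C57BL6 mice (young adults), with 1 library per condition and an Input made from a 50:50 mixture of the genotypes. Naive CD4+CD62L+ spleen cells were stimulated through CD3 and CD28 with 10 ng/ml IL-4 and an antibody to IFN-g for 3 days, then grown for 4 days with IL-2 and IL-4, so every library shares the Th2 conditions. The *Parp14* deletion was present in all cells of the mice, not in T cells alone. The small molecule PJ34 inhibits PARP enzymes in general and not PARP-14 alone. The labels give its dose as 10 µM on cells already differentiated, whereas the study's methods give a lower dose, present during culture. The sources used here do not say how many mice went into a library.

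Chemokine receptors are G protein-coupled receptors that read gradients of chemokines and steer a T cell to the tissue that makes them. CCR4 and CCR8 are typical of Th2 cells and serve entry into skin and sites of allergic inflammation. CCR7, by contrast, brings naive and central memory T cells into lymph nodes, CXCR4 binds CXCL12 and is found on most leukocytes, and CCR2 serves monocytes and part of the effector T cells. The antibody used recognises the phosphoserine 2 form of RNA Polymerase II, which travels through the gene body during elongation and gathers towards its 3′ end.

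Labels in the gene table could not be used alone. *Ccr4*, *Ccr8* and *Cxcr4* carried their own names (3 of 5). The line labelled Ccr2 lies on chromosome 6 from 29417783 to 29420509 and holds the transcript of *Atp6v1f*, a proton pump subunit. *Ccr2* itself was found on chromosome 9 under the label D130059P03Rik. The line labelled Ccr7 lies on chromosome 11 from 58767550 to 58768014, while *Ccr7* was found on the same chromosome from 99005513 to 99016391 under the label Accn2. Both displaced lines belong to genes with no interval in either *Parp14*+/+ library.

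Values are peak heights, the largest number of overlapping fragments within an active region of the gene. Active regions are intervals of enrichment over Input, found by the program SICER and merged over libraries, and each of the 5 genes had 1 such region. The region of *Ccr7* holds no interval of the 4 libraries used here, so the regions were not made from these libraries alone. Depth had been made equal before the heights were taken. The tracks held 8841 to 12014 intervals per library with a median height of 9 in each. At *Parp14*, intervals covered 53.9% to 59.2% of the gene in the *Parp14*+/+ libraries and 6.95% to 8.51% in the *Parp14*-/- libraries. By this coverage the 2 genotypes separated as labelled. The peak heights of *Parp14* lay closer, at 8 and 11 in *Parp14*+/+ without and with PJ34 and 6.67 in both *Parp14*-/- libraries. Of 6 T cell markers, 4 to 6 had an interval in each library, and of 7 Th2 markers (*Ccr4* and *Ccr8* among them) 6 or 7 did. The summed height of the Th2 list was 361 and 308 in *Parp14*+/+ cells without and with PJ34, and 300 and 244 in *Parp14*-/- cells. In that order, *Il4* stood at 61, 39, 29 and 18, *Il13* at 38, 33, 17 and 10 and *Il5* at 21, 21, 4 and 6, the last without an interval in either *Parp14*-/- library. *Gata3* stood at 60, 58, 45 and 43 and *Il4ra* at 132, 110, 160 and 130. The part of these Th2 differences in the receptor values was not tested. The Th1 markers *Tbx21*, at 19 to 28, and *Ifng*, at 14 to 22, also had intervals in all 4 libraries. Of 4 B cell markers, *Cd79b*, *Ms4a1* and *Pax5* had no interval, and *Cd79a*, at 28 to 38, had the same heights as its neighbour *Rps19*. *Cd8a* had no interval, nor did *Itgam*, while the myeloid genes *Csf1r* and *Mpo* had one in 3 libraries and 1 library. In bulk cultures, fewer cells that transcribe a gene and less polymerase per cell cannot be told apart.

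Of the 5 genes, *Ccr8* had the highest polymerase peak in every library, at 24 to 32. *Ccr4* and *Cxcr4* followed at 13 to 20 and changed places between libraries. *Ccr7* stood at 8 to 10 with no interval, and *Ccr2* ran from 5 to 15. Intervals were called in all 4 libraries at 2 genes, *Ccr4* and *Ccr8*, and in none at *Ccr7*. Neighbours in this order mostly could not be told apart. Of the 16 neighbouring pairs over the 4 libraries, the ratio of *Ccr8* to *Ccr4* in *Parp14*+/+ was the only one whose 95% interval lay above 1, at 1.88 (1.02 to 3.61). Each pair was ordered by the same heights, so its ratio cannot fall below 1 and this interval is a description. All intervals of ratios given here are exact binomial (Clopper-Pearson) intervals of the heights taken as counts, and those of single heights are exact Poisson intervals. Both cover counting error only, and that only roughly, since a height is a maximum over a region and not a plain count. With no replicates, no difference between conditions has a replicate check and no p-value is given. A peak height is not a level per length or a transcript level, so the order is of polymerase at the highest point.

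**Figure D1:**
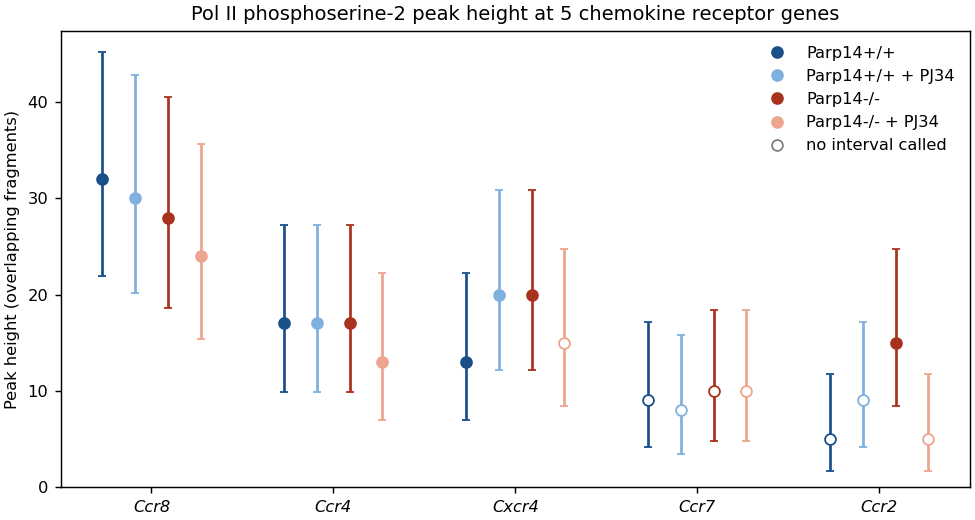
Peak height in overlapping fragments (vertical axis) at the 5 genes in the 4 libraries, with 95% exact Poisson intervals as bars and open points where no interval was called. The *Ccr8* points lie at 24 to 32, above every other gene, and the *Ccr2* point of *Parp14*-/- at 15 stands above its other 3 points at 5 to 9.

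*Ccr8*, the receptor for CCL1, lies on the plus strand of chromosome 9 from 120001251 to 120004024 (gene identifier 12776). In *Parp14*+/+ cells its peak height was 32 untreated (21.9 to 45.2) and 30 with PJ34 (20.2 to 42.8). In *Parp14*-/- cells it was 28 untreated (18.6 to 40.5) and 24 with PJ34 (15.4 to 35.7). Both *Parp14*+/+ libraries were the higher ones, but the 4 intervals overlapped throughout. These heights exceeded those of 90.8% to 94.3% of the 8551 genes with an interval in any library. Each library had a single interval of 10.7 to 12.3 kb that covered the whole gene, began 2600 to 3200 bp before its start and ran 4676 to 6626 bp past its end. The highest point lay downstream of the gene in each library, 2025 and 1513 bp past the end in *Parp14*+/+ cells without and with PJ34, and 1289 and 1385 bp past it in *Parp14*-/- cells. No other gene of the table shared these intervals. Of the 36-base stretches in the gene, 98.1% occur once in the mouse genome.

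The intervals at *Ccr8* and *Ccr4* also spanned the promoter, so the bases just before each start are shown. Both were read from NCBIM37, the assembly of mm9, in the direction of transcription. Capitals mark matches to a GATA motif, searched on both strands as GATA with A or T before it and A or G after it. GATA-3 is the lineage factor of Th2 cells. STAT motifs, searched as TTCNNNNGAA and TTCNNNGAA, would also be in capitals.
Ccr8, chr9:120001001-120001250, plus strand: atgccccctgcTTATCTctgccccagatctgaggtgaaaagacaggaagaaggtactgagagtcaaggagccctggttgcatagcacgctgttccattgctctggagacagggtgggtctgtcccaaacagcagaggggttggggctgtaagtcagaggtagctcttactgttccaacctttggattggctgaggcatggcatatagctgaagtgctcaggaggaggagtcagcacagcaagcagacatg
Ccr4, chr9:114405665-114405914, minus strand: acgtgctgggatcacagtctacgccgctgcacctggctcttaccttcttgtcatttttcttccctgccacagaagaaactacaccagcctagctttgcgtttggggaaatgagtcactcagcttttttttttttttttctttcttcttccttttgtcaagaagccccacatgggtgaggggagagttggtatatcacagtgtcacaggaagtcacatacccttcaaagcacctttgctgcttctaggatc
The window of *Ccr8* held 1 GATA match, on the opposite strand from -239 to -234 counted from the start, and that of *Ccr4* held none. Of the same 250 bases before all 11608 genes listed, 18.1% held the GATA motif. TTCNNNNGAA was found in 4.62% and TTCNNNGAA in 5.81%, and in none of the 5 members. The windows of *Ccr2* and *Ccr7* each held 2 GATA matches and that of *Cxcr4* none. A match is a run of letters and not a measured binding site.

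*Ccr4*, the receptor for CCL17 and CCL22, is transcribed from the minus strand of chromosome 9, between 114400740 and 114405664 (gene identifier 12773). In *Parp14*+/+ cells its peak height was 17 untreated and 17 with PJ34. In *Parp14*-/- cells it was 17 untreated (9.9 to 27.2, as for both *Parp14*+/+ values) and 13 with PJ34 (6.92 to 22.2). The first 3 libraries were thus equal, and the interval of the last overlapped theirs. Intervals covered the whole gene in every library. What differed was their length, 23.6 kb in the untreated *Parp14*+/+ library against 10.95 kb with PJ34, and 13.2 and 11.1 kb in *Parp14*-/- cells without and with PJ34. The *Parp14*+/+ interval ran 15989 bp past the listed end of the gene, and the other 3 ran 4889 to 7139 bp past it. Intervals were also longer in that library as a whole, with a median of 5250 bp against 4350 to 4950 bp, and the part of this in the length at *Ccr4* was not tested. The highest point lay 323 bp past the listed end in *Parp14*-/-, within the longer 3′ untranslated region that GENCODE gives *Ccr4*, and 1619 to 3139 bp past it in the other 3 libraries, downstream of both ends. Of the 36-base stretches in the gene, 89.6% occur once in the genome, the lowest share of the 5.

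**Figure D2:**
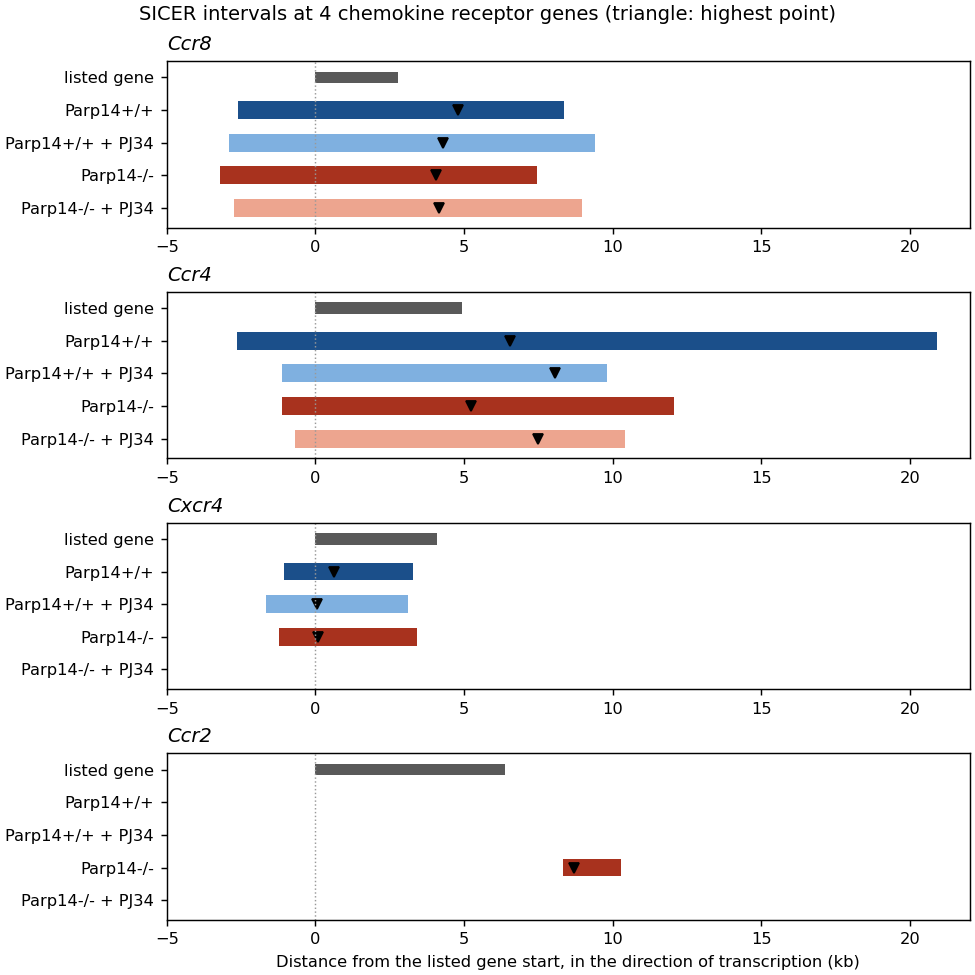
SICER intervals (coloured bars) at *Ccr8*, *Ccr4*, *Cxcr4* and *Ccr2* in the 4 libraries, drawn by distance in kb from the listed start in the direction of transcription, with triangles at the highest points and grey bars for the listed genes. The highest points lie past the gene at *Ccr8* and *Ccr4* and within 619 bp of the start at *Cxcr4*, and *Ccr2* has 1 interval, in *Parp14*-/-.

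*Cxcr4* is transcribed from the minus strand of chromosome 1, between 130484776 and 130488876 (gene identifier 12767). In *Parp14*+/+ cells its peak height was 13 untreated (6.92 to 22.2) and 20 with PJ34 (12.2 to 30.9). In *Parp14*-/- cells it was 20 untreated (12.2 to 30.9) and 15 with PJ34 (8.4 to 24.7). The untreated *Parp14*+/+ library was the lowest and the libraries with either change alone were the highest, with intervals that overlapped. SICER called an interval in the first 3 libraries, at 4.35, 4.8 and 4.65 kb, but not in *Parp14*-/- + PJ34, although the height there was above that of *Parp14*+/+. The intervals covered 79.9%, 76.2% and 83.5% of the gene, in the same order, and ended 675 to 975 bp before its 3′ end. The profile differed from those of *Ccr8* and *Ccr4*, since the highest point lay near the start in each of the 3 libraries with an interval. It was 619 bp after the start in *Parp14*+/+, inside the intron, and 43 and 75 bp after it in the other 2 libraries, in the 5′ untranslated region. The bases just before this start, which all 3 intervals covered, had a GC content near the median of all genes listed.
Cxcr4, chr1:130488877-130489126, minus strand: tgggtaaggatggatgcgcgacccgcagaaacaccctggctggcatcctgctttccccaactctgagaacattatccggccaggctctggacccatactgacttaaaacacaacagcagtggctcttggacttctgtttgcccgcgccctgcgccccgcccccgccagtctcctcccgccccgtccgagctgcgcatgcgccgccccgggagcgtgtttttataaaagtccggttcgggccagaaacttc
Their GC content was 61.2%, against a median of 59.6% over the 11608 windows, 53.6% before *Ccr8* and 46.4% before *Ccr4*.

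*Ccr7* is transcribed from the minus strand of chromosome 11, between 99005513 and 99016391. In *Parp14*+/+ cells its peak height was 9 untreated (4.12 to 17.1) and 8 with PJ34 (3.45 to 15.8). In *Parp14*-/- cells it was 10 (4.8 to 18.4) both untreated and with PJ34. These values lay within 2 fragments of each other. No library had an interval at the gene, and the nearest one lay 48.3 to 51 kb upstream. The active region in which the heights were taken, 17250 bp long, holds no interval of these 4 libraries. *Ccr7* is therefore outside the 8551 genes with an interval and could not be called in any comparison.

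*Ccr2* lies on the plus strand of chromosome 9 from 124016922 to 124023289. In *Parp14*+/+ cells its peak height was 5 untreated (1.62 to 11.7) and 9 with PJ34 (4.12 to 17.1). In *Parp14*-/- cells it was 15 untreated (8.4 to 24.7) and 5 with PJ34 (1.62 to 11.7). *Parp14*-/- stood above the other 3 libraries, and it alone had an interval. This interval covered none of the listed gene. It ran for 1950 bp from 124025251 to 124027200, with its highest point 2344 bp past the listed end and 8711 bp past the start. GENCODE on the same assembly has a longer *Ccr2* transcript, to 124028296, and the highest point lies in its last intron. The active region of *Ccr2* is this one interval, so the stretch in which all 4 heights were read was set by *Parp14*-/-. The order of the heights is therefore a description and supports nothing further. The bases around the highest point are shown because the *Ccr2* value rests on them. Neither motif occurred there, and no letter is in capitals.
Ccr2 last intron, chr9:124025558-124025707, plus strand: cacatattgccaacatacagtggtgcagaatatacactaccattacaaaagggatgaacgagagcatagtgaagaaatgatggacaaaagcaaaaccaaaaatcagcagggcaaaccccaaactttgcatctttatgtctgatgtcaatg
Of the 36-base stretches in this interval, 99.1% occur once in the genome, against 96.2% in the listed gene.

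The first comparison asks what loss of PARP-14 does in untreated cells. *Ccr8* was 1.14 times as high in *Parp14*+/+ as in *Parp14*-/- (0.667 to 1.97), *Ccr4* 1.00 times (0.480 to 2.08) and *Ccr7* 0.900 times (0.324 to 2.46). *Cxcr4* had a ratio of 0.650 (0.297 to 1.37) and *Ccr2* one of 0.333 (0.0948 to 0.965). With the outer limits of the study, above 1.4 or below 0.7, and an interval in the higher library, *Cxcr4* and *Ccr2* were called, both lower in *Parp14*+/+. The study also admits ratios from 1.2 to 1.4 and from 0.7 to 0.83 for genes above a minimum signal. That minimum is on another scale than the heights used here, so that part of its rule was left out of all calls given here. These calls are therefore not the study's own list of genes. The same limits called 20.0% of the 8551 genes in either direction and 8.99% as lower in *Parp14*+/+, with a median ratio of 1.00. The interval of *Cxcr4* included 1, and that of *Ccr2* ended just below it in the region that *Parp14*-/- had set. At *Ccr8* and *Ccr4* no difference was detectable at this depth, which does not show that the levels were equal.

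The same genotypes were compared in the presence of PJ34, in a pair that shares no library with the first. The ratio of *Parp14*+/+ + PJ34 to *Parp14*-/- + PJ34 was 1.25 for *Ccr8* (0.707 to 2.23), 1.31 for *Ccr4* (0.598 to 2.93), 1.33 for *Cxcr4* (0.649 to 2.80), 1.80 for *Ccr2* (0.542 to 6.84) and 0.8 for *Ccr7* (0.274 to 2.25). By the outer limits none of the 5 was called, against 24.3% of the 8551 genes, and each interval included 1. *Ccr8*, *Ccr4* and *Cxcr4* lay in the band from 1.2 to 1.4 that was left out. The median ratio over those genes was 1.14, and the *Parp14*-/- + PJ34 library had the lowest median height, 8.5 against 9 to 10 in the others. *Cxcr4* and *Ccr2* thus changed sides of 1 between the genotype pairs, which 34.8% of the genes with both ratios did.

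The effect of PJ34 was read within each genotype. In *Parp14*+/+ cells the untreated to treated ratio was 1.07 for *Ccr8* (0.628 to 1.82), 1.00 for *Ccr4* (0.480 to 2.08) and 1.13 for *Ccr7* (0.385 to 3.35). It was 0.650 for *Cxcr4* (0.297 to 1.37) and 0.556 for *Ccr2* (0.146 to 1.85). *Cxcr4* was called, lower without PJ34, where 15.5% of the genes were called in either direction and 9.23% in this one, at a median ratio of 0.958. *Ccr2* was past the limit but had no interval in the treated library. In *Parp14*-/- cells, where PJ34 cannot act through PARP-14, the ratio was 1.17 for *Ccr8* (0.652 to 2.10), 1.31 for *Ccr4* (0.598 to 2.93), 1.33 for *Cxcr4* (0.649 to 2.80), 1.00 for *Ccr7* (0.374 to 2.68) and 3.00 for *Ccr2* (1.04 to 10.6). *Ccr2* was called, higher without PJ34, where 15.4% of the genes were called in either direction and 11.4% in this one, at a median ratio of 1.08. As in the untreated pair, the region measured had been set by the high library, so this call is a description. The comparisons within a genotype reuse the libraries of the genotype pairs, so the low *Parp14*+/+ height of *Cxcr4* and the high *Parp14*-/- height of *Ccr2* each enter 2 calls.

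**Figure D3:**
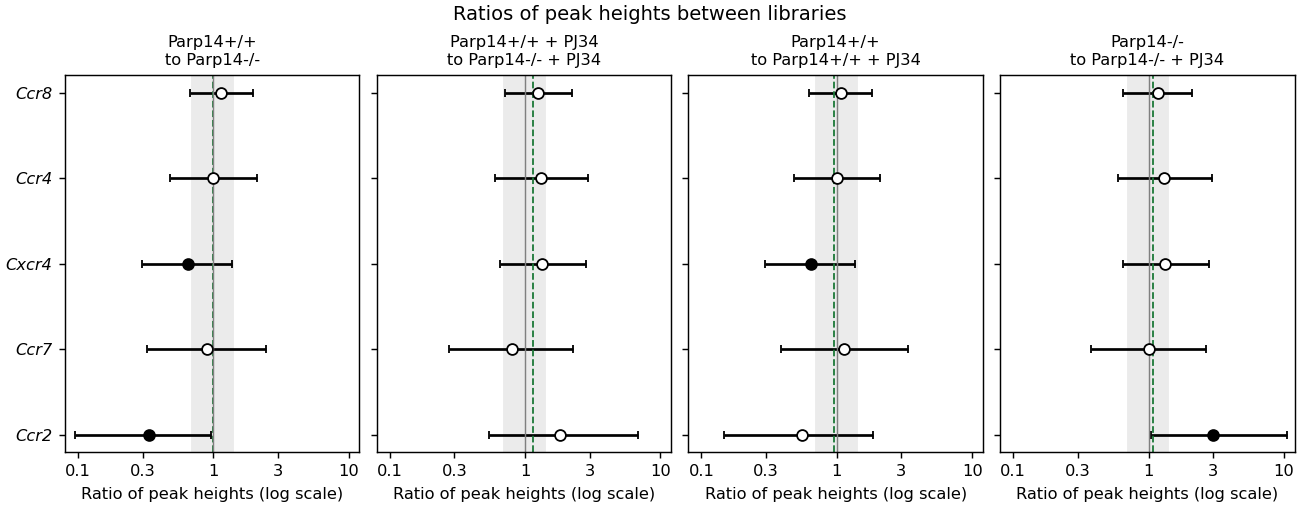
Ratio of peak heights of the first to the second library on a log axis, 1 panel per comparison, for the 5 genes with 95% exact binomial intervals. Filled points were called, the grey band spans the limits of 0.7 and 1.4, and the dashed line is the median of 8551 genes. Only *Ccr2* has intervals that leave out 1, at 0.333 and 3.00. Both were read in a region that the high library, *Parp14*-/-, had set, so they are a description.

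Of 17 other chemokine receptors, 9 had a line at their locus, 3 of them under another gene's label, and 4 had an interval. *Ccr1* and *Cxcr6*, receptors of inflammatory and tissue-homing T cells, had intervals in all 4 libraries. *Cxcr6* stood at 15, 12, 15 and 11 in *Parp14*+/+ without and with PJ34 and *Parp14*-/- without and with PJ34. In the same order, *Ccr1* stood at 7, 9, 9 and 11. *Ccr3*, the eotaxin receptor, stood at 9, 9, 8 and 5, and its intervals were in both *Parp14*+/+ libraries and neither *Parp14*-/- library. *Xcr1*, the receptor for XCL1, stood at 17, 17, 33 and 20. The *Parp14*-/- library was the high one for *Xcr1*, at 0.515 for *Parp14*+/+ over *Parp14*-/- (0.269 to 0.952). Intervals at *Cxcr6* and *Xcr1* also reached *Fyco1*, the gene that lies across this stretch, so their heights need not come from the receptors.

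Receptors of other T cell subsets were low. *Ccr6*, of Th17 cells, stood at 2.5 to 4.5, *Cxcr5*, of follicular helper cells, at 5 to 7, and *Ccr9*, of gut-homing cells, at 2 to 3, all with no interval. *Cxcr7* stood at 2 in every library and *Ccbp2* at 1 to 4, again with no interval. In the untreated genotype pair, *Xcr1* was called among these receptors, where 20.0% of all genes with an interval were called. In the PJ34 pair *Ccr3* was, with a ratio of 1.80 (0.542 to 6.84), where 24.3% were called. Only the high library of that pair had an interval at *Ccr3*, so its call is a description. The median ratio of the 4 with an interval was 0.889 untreated and 0.971 with PJ34.

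**Figure D4:**
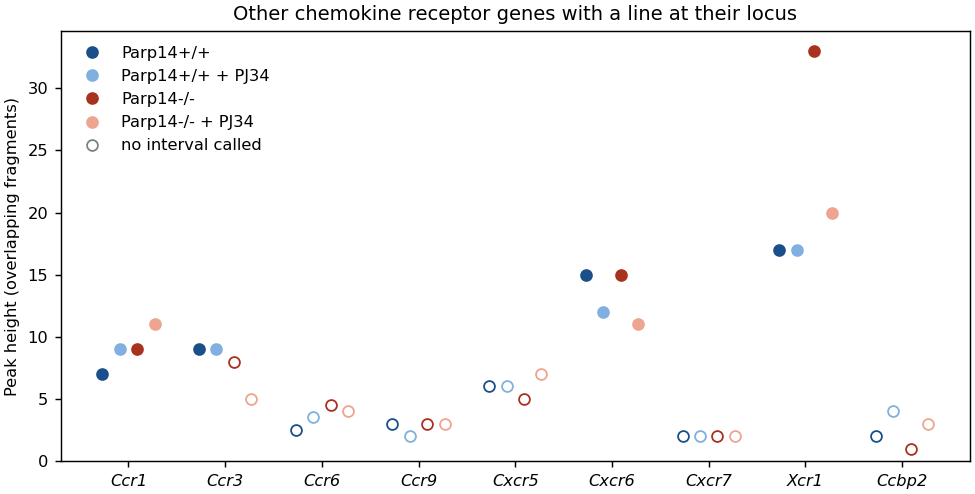
Peak height in overlapping fragments (vertical axis) at 9 other chemokine receptor genes with a line, in the 4 libraries, with open points where no interval was called. *Xcr1* reaches 33 in *Parp14*-/-, and *Ccr6*, *Ccr9*, *Cxcr5*, *Cxcr7* and *Ccbp2* lie at 7 or below.

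Of 17 chemokine genes, 5 had a line, each with an interval in at least 1 library. *Ccl1*, which encodes the ligand of CCR8, stood at 18 untreated and 23 with PJ34 in *Parp14*+/+ cells, and at 11 and 12 in *Parp14*-/- cells. Both *Parp14*+/+ libraries were above both *Parp14*-/- libraries, with ratios of 1.64 (0.732 to 3.83) and 1.92 (0.915 to 4.23), called in both pairs. *Ccl17*, for the ligand of CCR4, stood at 11, 10, 8 and 9 in the same order and was not called. *Ccl4*, for an inflammatory chemokine, stood at 13, 23, 23 and 14, the order of levels seen at *Cxcr4*. It was called lower in *Parp14*+/+ untreated, at 0.565 (0.263 to 1.16), and higher with PJ34, at 1.64 (0.810 to 3.45). *Ccl3* was called in neither genotype pair. *Xcl1* stood at 2, 1, 6 and 6 with an interval in *Parp14*-/- + PJ34 alone, and it was called lower in *Parp14*+/+ + PJ34, at 0.167 (0.00362 to 1.37). It qualified only through the library where it was high, so this call is a description. In the untreated pair 1 of the 5 was called higher in *Parp14*+/+ and 1 lower, where 20.0% of all genes with an interval were called. With PJ34, 2 were higher and 1 lower, where 24.3% of all genes were called. Over the 5 genes the median ratio was 1.33 untreated and 1.11 with PJ34.

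Of 34 genes that act downstream of chemokine receptors, 31 had a line and 28 an interval. In the untreated pair 1 was called higher in *Parp14*+/+ and 2 lower, where 20.0% of all genes with an interval were called, and the median ratio was 0.944. With PJ34, 4 were higher and 2 lower, and the median ratio was 1.18. In this pair 24.3% of the 8551 genes were called, 1690 higher and 392 lower, at a median ratio of 1.14. *Rac1*, a small GTPase of cell movement, was the one called in both pairs, at 24, 22, 16 and 15 and ratios of 1.5 (0.765 to 3.02) and 1.47 (0.727 to 3.04). *Rhoa*, another such GTPase, stood at 23, 43, 30 and 21. Its high *Parp14*+/+ + PJ34 value gave a ratio of 2.05 (1.19 to 3.63) in the PJ34 pair. *Adrbk1*, a receptor kinase, and *Pik3cg*, the lipid kinase under G proteins, were called higher with PJ34, at 1.42 and 1.44. *Rgs16*, which shortens G protein signals, and *Pik3cd* were called lower, at 0.595 and 0.565. In the untreated pair the G protein subunit gene *Gng2*, at 0.667, and the receptor kinase gene *Grk6*, at 0.633, were called lower. Only the high library of that pair had an interval at *Gng2*, so its call is a description. Of the genes called, *Rhoa* in the PJ34 pair had an interval that left out 1. So did 2 genes that were not called and are named here after their values were seen. *Rgs1*, the tallest of the list at 136, 123, 192 and 147, had a ratio of 0.708 (0.564 to 0.887) untreated. *Elmo1*, a partner of DOCK2 in the activation of RAC, had one of 1.27 (1.04 to 1.56) with PJ34 over its 25 active regions. The interval of *Elmo1* includes the median ratio of that pair, 1.14, which was not taken out.

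Of 14 other genes of homing and retention, 14 had a line and 11 an interval. In the untreated pair 1 was called higher in *Parp14*+/+ and 3 lower, against 20.0% of all genes with an interval, and the median ratio was 0.900. With PJ34, 3 were higher and 3 lower, and the median ratio was 0.929. In this pair 24.3% of the 8551 genes were called, 1690 higher and 392 lower, at a median ratio of 1.14. *Cd69*, whose product holds T cells in tissue by removing S1PR1 from the surface, stood at 29 untreated and 41 with PJ34 in *Parp14*+/+ cells, and at 88 and 86 in *Parp14*-/- cells. Both *Parp14*-/- libraries lay far above both *Parp14*+/+ libraries. Whether intervals are shared with neighbouring genes was not examined for *Cd69*, the rest of this list or the genes downstream of the receptors. The ratios were 0.330 (0.209 to 0.507) untreated and 0.477 (0.320 to 0.699) with PJ34. *Klf2*, the factor that drives *S1pr1*, stood at 10, 8, 18 and 16, and its ratios of 0.556 (0.229 to 1.27) and 0.5 (0.185 to 1.24) were both called but included 1. *Gpr183*, at 0.684, was called lower and the integrin gene *Itgb7*, at 1.60, higher in the untreated pair. *Itgb7* had an interval in the untreated *Parp14*+/+ library alone, so its call is a description. With PJ34, *Cd44* (1.69), *Itgal* (1.43) and *Itgb1* (1.60) were called higher, and *Gpr44* (0.667), the prostaglandin D2 receptor of Th2 cells, was called lower. Leaving out *Cd69*, every interval of these included 1.

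Likeness to a member was measured by the distance between the 4 log2 heights, each gene centred on its own mean, over 836 genes with a summed height of at least 50 in their highest library. It rests on 4 values a gene. The genes nearest to *Ccr4* were *Akap13*, *Psmd1* and *Rbpj*, at distances of 0.0163 to 0.0493. Those nearest to *Ccr8* were *Nsd1*, *Agpat4* and *Kansl1*, at 0.0354 to 0.0431. *Frmd8*, at 63, 97, 99 and 77, was nearest to *Cxcr4* at a distance of 0.0674, followed by *Bclaf1* and *Atp11b*. *Ccr7* was nearest to *Socs1*, *Prm2* and *Prm3*, which have the same heights and a distance of 0.103. No gene came as close to *Ccr2*. The nearest were *Mgat5* at 0.737, a line on chromosome 17 whose transcripts are not in the RefSeq table at 0.739, and *Daxx* at 0.760.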

How the data were processed

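RNA Polymerase II phosphoserine 2 ChIP was sequenced in 4 Th2 cultures, with 36-nt reads. Per the study's methods, the authors used ELAND to map reads to mm9, dropped duplicates, reduced the libraries to equal depth and called intervals against Input with SICER (window 150 bp). The deposited gene table gives, as signal, the average peak height of each gene over its active regions. The deposited tracks give each interval with its highest point. A further 8 columns with per-sample values match no sample here and were not used. Fold changes and p-values of the authors were not used.

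Lines were found by transcript accession in RefSeq (GRCm38.p6, names only) and by overlap with GENCODE on NCBIM37. Ratios of heights were taken as deposited, with 95% Clopper-Pearson intervals, and genes were called above 1.4 or below 0.7 with an interval in the higher library. Scripts ran in Python 3.11.15 with numpy 2.4.6 and scipy 1.17.1, and the interval and call functions were tested on simulated data. The interval test drew plain Poisson counts and not maxima over a region. Sequence uniqueness counts 36-base stretches of NCBIM37 on both strands. The genes named were the members, every other chemokine receptor with a line, and genes of the other lists called in either genotype pair. The results of 3 genes of the lists are not reported here, and they were left out of the counts. Members and lists were chosen with earlier results of these data known. Alternatives covered the pseudocount, the scaling, the limits, the interval and the height required, and the span over which coverage was taken.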

Additional observations from a re-analysis of the deposited data

Results flagged for a closer look

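*Ccr2* and *Cxcr4* had genotype ratios on opposite sides of 1 without and with PJ34. For *Ccr2* the *Parp14*+/+ to *Parp14*-/- ratio was 0.333 untreated and 1.80 with PJ34, and the first divided by the second was 0.185. The *Ccr2* region was set by the *Parp14*-/- interval alone, so this value is a description and no interval is given. For *Cxcr4* the ratios were 0.650 and 1.33, and the first divided by the second was 0.488 (95% interval from a normal approximation on the log scale, 0.185 to 1.28, counting error only). With 1 library per condition the difference between the pairs was not tested. Of 8530 genes, 34.8% had genotype ratios on opposite sides of 1, and 24.1% had, as both members do, a ratio below 1 untreated and above 1 with PJ34. In 17% of genes *Parp14*+/+ was also below *Parp14*+/+ + PJ34 and *Parp14*-/- above *Parp14*-/- + PJ34, the order of heights seen at both.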

How the results depend on the processing

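Adding 1 to each height, scaling the libraries to a median ratio of 1, or taking the highest interval that overlaps the gene moved each ratio of the 5 genes by less than its counting interval. The last could be taken for 10 of 20 ratios, where both libraries had an interval. Scaling left the number of members called the same in each comparison. With a summed height of at least 50, no member was called in any comparison (0 against 2 in the untreated genotype pair, and 0 against 1 in each PJ34 comparison within a genotype), since none reaches 50. With limits of 1.2 and 0.83 for every gene, which the study applies above a minimum signal, 3 members were called in the PJ34 genotype pair and 3 between *Parp14*-/- and *Parp14*-/- + PJ34. With no interval required, 1 was called in the PJ34 genotype pair and 2 between *Parp14*+/+ and *Parp14*+/+ + PJ34. The share of all genes called was not computed for these settings, so the counts are not a result about the members. Over the 8551 genes the median ratio was 1.14 in the PJ34 genotype pair and 1.08 between *Parp14*-/- and *Parp14*-/- + PJ34. With 10 kb added on each side, the percent covered became, in *Parp14*+/+ without and with PJ34 and then *Parp14*-/- without and with PJ34, 70.5, 43.9, 60.8 and 44.5 for *Ccr4* and 48.1, 54, 46.8 and 51.4 for *Ccr8*. It was 18.1, 19.9 and 19.3 for *Cxcr4* in the first 3 and 7.4 for *Ccr2* in *Parp14*-/-, by construction of the wider span. Asking for a height of 9 or for 50% of the gene covered changed none of the 20 values. The labels give no replicate numbers, so no replicate block was fitted. A fit of genotype and PJ34 without their interaction would leave 1 residual degree of freedom and was not run. Heights of 5 to 32 leave intervals several-fold wide, so moderate differences cannot be detected at this depth.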
